A study of Bubalus bubalis with 9 samples.

Results

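The small leucine-rich proteoglycans are secreted proteins of the extracellular matrix, built of leucine-rich repeats, and most of them carry chains of chondroitin, dermatan or keratan sulphate. They bind collagen fibrils and set their width and spacing, and several of them also bind growth factors such as TGF-beta or act on cell surface receptors. Fibroblasts of connective tissue are their best known source, whereas the granulosa layer of an ovarian follicle is free of vessels and is parted from the theca and stroma by a basal lamina. The genes described here are BGN (biglycan), DCN (decorin), ASPN (asporin), LUM (lumican), FMOD (fibromodulin), PRELP (prolargin) and OGN (osteoglycin). They were taken by name from the gene identifiers, and all 7 were found once among 20801 unique genes.

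Granulosa cells, the somatic cells that surround the oocyte and line the follicle, came from the ovary of Chinese buffalo (Bubalus bubalis). The 9 samples fall into 3 groups of 3, from healthy follicles, from early atretic follicles and from late atretic follicles. Atresia is the degeneration by which most follicles are lost. The labels give no strain, age or treatment, and whether the samples of a group are from separate animals is not said. The p-values may therefore rest on technical spread alone.

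Each value below is a mean normalized read count of a group of 3 samples, a log2 fold change between groups or the authors' p-value, from their 3 deposited tables, 1 for each pair of stages. The group means summed to between 13141820 and 14490733 normalized counts over all genes. The depth of each library is unknown, and values per sample were not used here. The error given as ± is the standard error that a fold change and its p-value imply under a two-sided normal test, and 95% intervals are built from it. A gene is said to have risen or fallen where the authors' adjusted p is below 0.05. Levels are compared between stages and not between genes, since no transcript lengths were at hand.

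The samples carried the defining markers of granulosa cells at every stage, and the summed levels of stroma and macrophage markers were higher in both atretic groups. In the authors' deposited tables the summed level of 6 granulosa markers was 623410 normalized counts in healthy and 151310 in early atretic follicles, and 605322 in healthy and 282192 in late atretic follicles. INHA and INHBA made up most of these sums, with 321220 and 270038 of the 623410 and 78598 and 64139 of the 151310. In late atretic follicles they held 166575 and 94270 of the 282192. INHBA passed at neither stage (adjusted p = 0.17 and 0.45, the authors' deposited tables). Of the 6 granulosa markers 4 fell in early atretic follicles and 0 passed in late atretic follicles, where the unadjusted p was below 0.05 for 0 in either direction. The summed level of 8 stroma and fibroblast markers, among them PDGFRA and PDGFRB, went from 1827 to 8946 normalized counts in early and from 1773 to 11903 in late atretic follicles, and 6 and 4 of the 8 rose. The collagen genes COL1A1 and COL1A2, also counted among the collagens described further on, made up 4962 of the 8946 and 8339 of the 11903. NR2F2 is on the theca list too. Without these 3 genes the sum of the other 5 went from 715 to 3790 and from 693 to 3446 normalized counts, with 4 and 2 of the 5 higher. TCF21, with log2 fold changes of 0.18 ± 1.72 and -0.83 ± 1.21, and NR2F2, with 0.85 ± 0.39 and 0.19 ± 0.35, did not pass at either stage per the authors' deposited tables. The summed level of 5 macrophage markers, among them CD68 and CSF1R, went from 209 to 1537 and from 203 to 3123, and 3 of 5 rose in each comparison. Of 6 endothelial markers 1 rose in early and 0 in late atretic follicles. At an unadjusted p below 0.05 there were 3 higher and 0 lower in early, and 1 higher and 1 lower in late atretic follicles. Of 6 smooth muscle and pericyte markers 1 rose and 1 fell in early and 1 rose in late atretic follicles. Of 5 theca markers 0 passed at either stage, with 2 higher in early and 0 in late atretic follicles at an unadjusted p below 0.05. Among all tested genes 8.59% were higher and 4.35% lower in early, and 3.98% and 0.397% in late atretic follicles. At an unadjusted p below 0.05 these shares were 13.7% and 9.82%, and 9.2% and 2.96%. The endothelial, smooth muscle and theca lists, of 5 or 6 genes, are too short to tell their counts by adjusted p from the shares of all tested genes. No marker found was at 0 in any group. Whether these cells account for any change of the proteoglycan genes was not tested. In such bulk samples more cells of a type and more RNA per cell cannot be told apart.

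Across the 7 genes, early atretic follicles differed from healthy ones in both directions. BGN, FMOD and DCN rose, ASPN fell, LUM and PRELP did not pass, and OGN had no p-value. Of the 6 genes with a p-value, 4 passed per the authors' deposited table, 3 higher and 1 lower. Among all 17386 tested genes 12.9% passed, 8.59% higher and 4.35% lower. In late atretic versus healthy follicles 2 of 7 passed, FMOD and BGN, both higher, against 4.38% of all tested genes, 3.98% higher and 0.397% lower. In late versus early atretic follicles 0 of 6 passed per the authors' deposited table, beside 0.108% of all tested genes, while 3 had an unadjusted p below 0.05. Those 3 were FMOD, ASPN and PRELP, all with a positive fold change, beside 2.36% of all tested genes that were higher at that threshold. The median log2 fold change of the 7 genes per the authors' deposited tables was 1.65 for early atretic versus healthy, 1.89 for late atretic versus healthy and 0.25 for late versus early atretic follicles. Over all tested genes these medians were 0.02, 0.03 and 0.06. The members were named with earlier results of these data known, which limits what their counts can show.

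**Figure D1:**
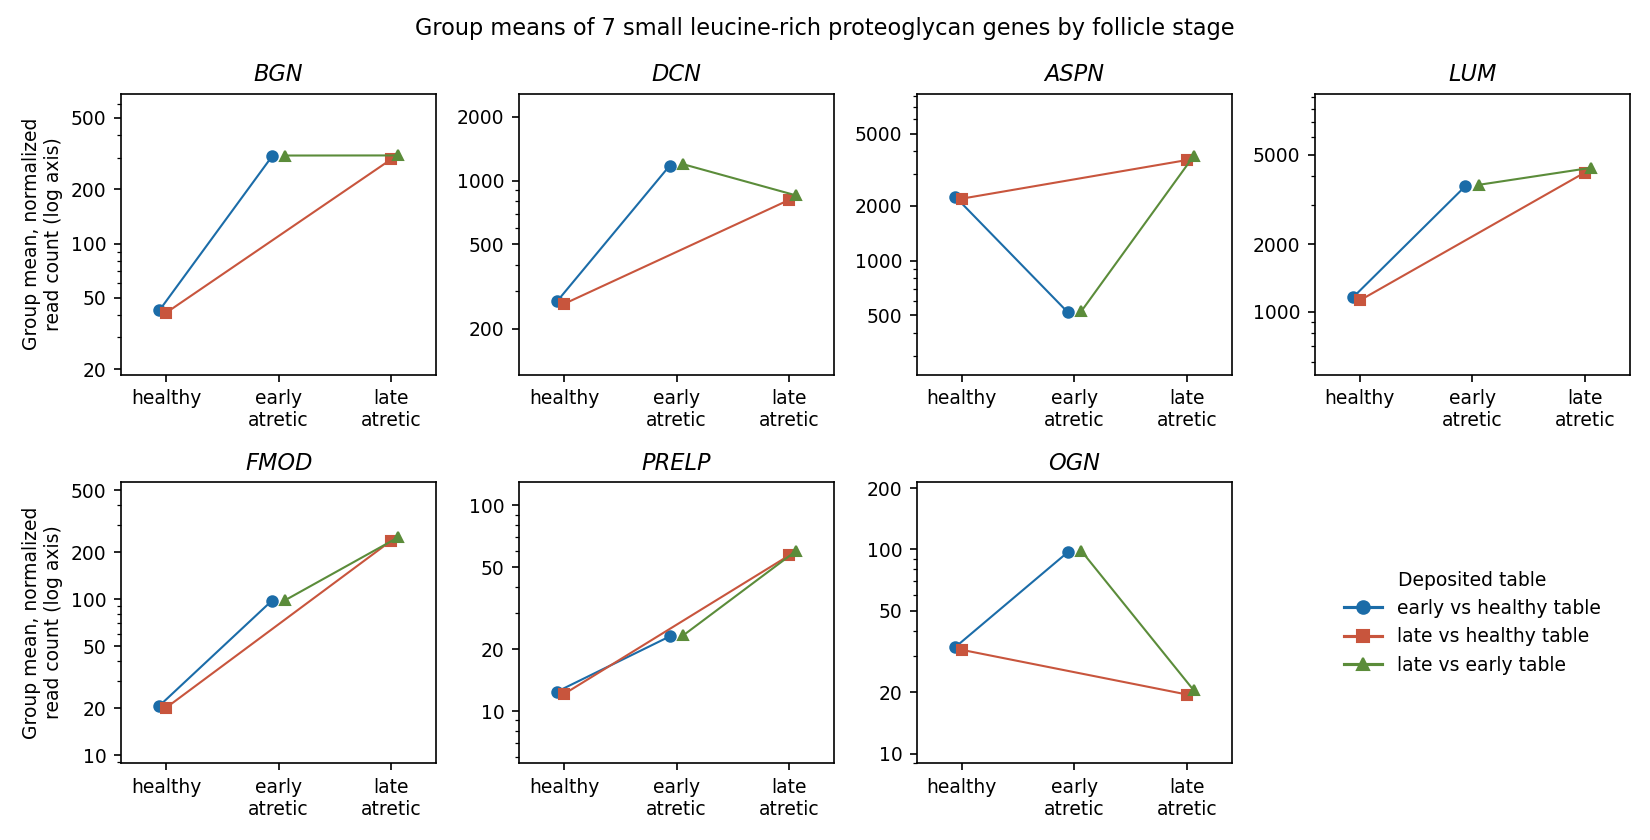
Group mean of each gene in normalized read counts on a log axis, by stage; each line joins the 2 groups of 1 deposited table, and there are no error bars because values per sample were not used. BGN stands at 42.5 in healthy, 305 in early and 294 in late atretic follicles, while ASPN dips from 2252 to 522 in early atretic follicles and stands at 3577 in late atretic follicles.

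Biglycan and decorin, the closest pair of class I, bind collagen fibrils through their protein core and carry chondroitin or dermatan sulphate chains. Free biglycan is also known as a ligand of the receptors TLR2 and TLR4, and decorin as a binder of TGF-beta and of the growth factor receptors EGFR and MET. BGN had a mean of 42.5 normalized counts in healthy and 305 in early atretic follicles per the authors' deposited table, a 7.17-fold rise. Its log2 fold change was 2.84 ± 0.48 with an adjusted p of 2.79e-07, and 4.09% of all tested genes had a larger one. In the late atretic table it had 41.2 and 294 normalized counts, and the log2 fold change was 2.84 ± 0.58 (adjusted p = 0.000116, the authors' deposited table). BGN was thus high at both atretic stages. Between late (309) and early (309) atretic follicles its log2 fold change per the authors' deposited table was 0.00, with a 95% interval from -0.94 to 0.94, so changes within that range could not be told from none.

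DCN had a mean of 270.3 normalized counts in healthy and 1179 in early atretic follicles per the authors' deposited table, a 4.36-fold rise with a log2 fold change of 2.12 ± 0.60 (authors' adjusted p = 0.0063). In late atretic follicles the means were 262 and 812, and the log2 fold change of 1.63 ± 0.71 did not pass (adjusted p = 0.25, the authors' deposited table). That DCN passed at 1 stage only does not show that the stages differ. The direct log2 fold change of late versus early atretic follicles was -0.49 ± 0.58 per the authors' deposited table, with a 95% interval from -1.62 to 0.65 (authors' adjusted p = 1.00).

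Asporin is the class I member with a run of aspartates near its start and no attached sugar chain of the usual kind, known in cartilage as an inhibitor of TGF-beta. ASPN went the other way from BGN and DCN. Its mean was 2252 normalized counts in healthy and 522 in early atretic follicles per the authors' deposited table, 4.31-fold lower, with a log2 fold change of -2.11 ± 0.52 (authors' adjusted p = 0.00099). Only 1.20% of all tested genes had a more negative value. The 95% interval of this fold change, from -3.12 to -1.10, lies wholly below 0, while that of BGN in the same table runs from 1.91 to 3.78. The difference between both genes was not itself tested. The genes were chosen with these opposite directions known, so the intervals and ranks of both are no separate support for the contrast. In late atretic follicles the mean of ASPN was 3577 normalized counts, against 2194 in healthy ones, and the log2 fold change of 0.70 ± 1.30 did not pass (adjusted p = 0.98, the authors' deposited table). The 95% interval of that value was wide, from -1.85 to 3.26.

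Late atretic follicles had 7.15 times the ASPN level of early atretic ones per the authors' deposited table, 3763 against 526 normalized counts. Its log2 fold change was 2.84 ± 1.27, which 0.775% of all tested genes exceeded, yet the authors' adjusted p was 0.80 and the unadjusted p 0.025. The fall in early atretic follicles therefore passed the threshold, and the higher level in late atretic follicles did not.

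The class II members lumican, fibromodulin and prolargin act on collagen assembly. Lumican spaces collagen fibrils and is best known from the cornea. Fibromodulin guides fibril growth and cross-linking in tendon, and prolargin is thought to anchor basement membranes to the tissue under them. FMOD rose at both stages. It had 20.8 normalized counts in healthy and 98.0 in early atretic follicles per the authors' deposited table, and its log2 fold change was 2.24 ± 0.45 (adjusted p = 2.4e-05). In late atretic follicles it had 237 against 20.2 normalized counts, an 11.7-fold rise with a log2 fold change of 3.55 ± 0.36 and an adjusted p of 6.77e-20, both from the authors' deposited table. Its level thus followed the order healthy, early atretic, late atretic. Between late (249) and early (98.9) atretic follicles the log2 fold change was 1.33 ± 0.37 per the authors' deposited table, with a 95% interval from 0.60 to 2.05, an unadjusted p of 0.000325 and an adjusted p of 0.12. Both steps versus healthy follicles passed, and the step between the atretic stages did not. In the RefSeq gene table of buffalo a long non-coding RNA gene, LOC112582777, overlaps FMOD, and strand is not stated for the counts. Reads from the stretch shared by both may therefore not be told apart. How much is shared was not examined, and the annotation used for the counts is unknown.

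LUM had 1158 normalized counts in healthy and 3628 in early atretic follicles per the authors' deposited table, and 1122 and 4164 in the late atretic table. Its log2 fold changes of 1.65 ± 0.90 and 1.89 ± 0.70 did not pass (adjusted p = 0.26 and 0.12, the authors' deposited tables). The group means differed by 3.13-fold and 3.71-fold, so LUM is a case of a large difference of means with a wide error. The late interval, from 0.52 to 3.27, lies above 0 before adjustment (unadjusted p = 0.00703 per the authors' deposited table), and the early one runs from -0.11 to 3.41. Between late (4376) and early (3674) atretic follicles the log2 fold change of LUM was 0.25 ± 0.38 per the authors' deposited table.

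PRELP was low at every stage, at 12.4 normalized counts in healthy and 23.1 in early atretic follicles per the authors' deposited table, and its log2 fold change of 0.89 ± 0.60 missed the threshold (authors' adjusted p = 0.41). In late atretic follicles it had 57.0 against 12.1 normalized counts, and its log2 fold change of 2.23 ± 0.73 missed it narrowly (adjusted p = 0.0527, the authors' deposited table). With the adjustment made over genes with a mean of at least 10 only, its adjusted p was 0.0400, so this call turns on which genes are counted. With a pseudocount of 10 added to both means the same log2 fold change was 1.60. Late against early atretic follicles gave a log2 fold change of 1.36 ± 0.64 per the authors' deposited table (adjusted p = 0.85).

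Osteoglycin, a class III member also called mimecan, is a keratan sulphate proteoglycan of bone and cornea. OGN had 33.2 normalized counts in healthy and 96.9 in early atretic follicles per the authors' deposited table, and 32.3 and 19.5 in the late atretic table. Its mean was therefore highest in early atretic follicles, in the reverse order of ASPN. The authors' deposited tables give OGN log2 fold changes of 1.54 for early atretic versus healthy and -2.27 for late versus early atretic follicles, both with no p-value. It is 1 of 23 genes with a fold change but no p-value in the first table and 1 of 61 in the second. Both tables without a p-value hold the early atretic group, and in the table without that group OGN had a log2 fold change of -0.73 ± 0.64 (adjusted p = 0.84, the authors' deposited table). No call can be made for OGN in early atretic follicles.

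**Figure D2:**
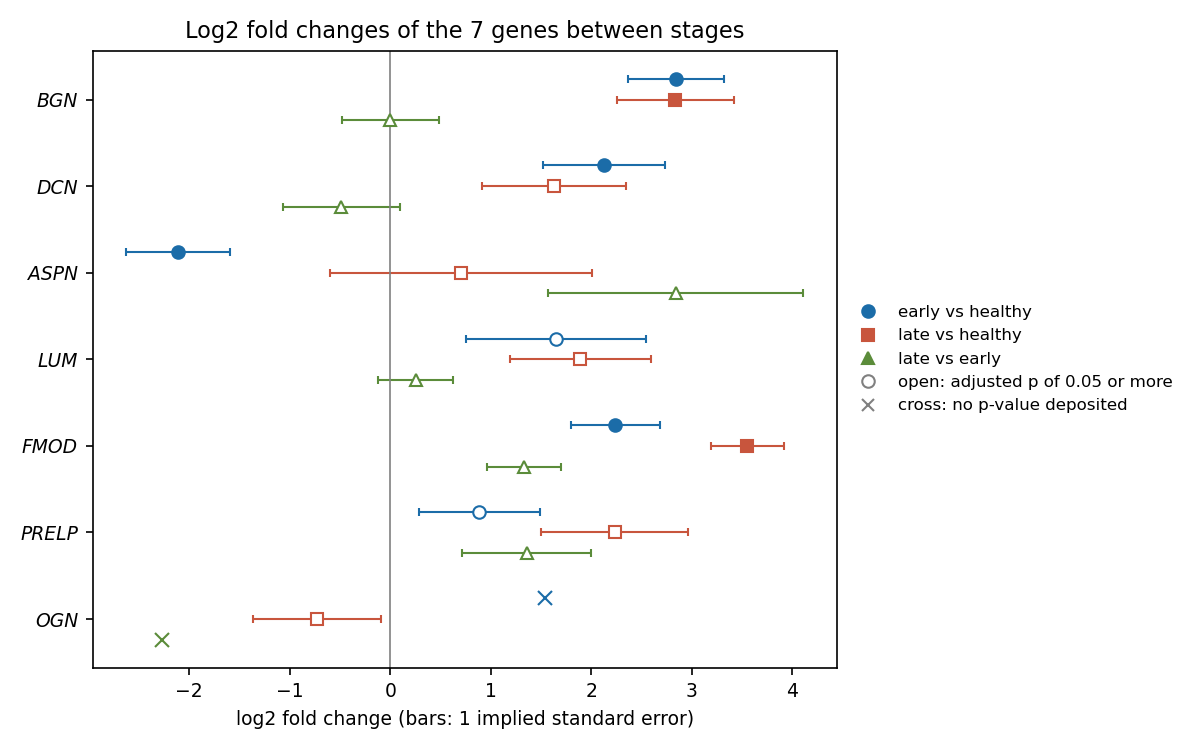
Log2 fold change of each gene in the 3 comparisons, with bars of 1 implied standard error; filled symbols have an authors' adjusted p below 0.05, open ones do not, and crosses have no p-value. BGN, DCN and FMOD lie to the right of 0 in both comparisons with healthy follicles, ASPN lies at -2.11 for early atretic follicles, and no symbol for late versus early atretic follicles is filled.

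The error of a fold change grows with the spread between samples and with low counts, and it differed greatly between the genes. For each gene it was set beside that of genes whose mean lay within 1.5-fold of its own. FMOD had errors near the middle of such genes, with 56.7% of them having a smaller error in early atretic versus healthy and 44.1% in late atretic versus healthy follicles. ASPN stood near the top, with 99.6% of like genes having a smaller error in late atretic versus healthy and 99.7% in late versus early atretic follicles. Its error there was 4.92 and 5.16 times the median of like genes, against 2.63 times in early atretic versus healthy follicles. So the 2 comparisons of ASPN that hold the late atretic group had errors of 1.30 and 1.27, and the one without it 0.52.

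For LUM the order of the errors was another one. They were 0.90 and 0.70 in the comparisons that hold the healthy group and 0.38 in late versus early atretic follicles. In early atretic versus healthy follicles 99.4% of like genes had a smaller error than LUM, and in late versus early atretic follicles 80.6% had. DCN had errors larger than at least 96.9% of like genes in all 3 comparisons, and those of BGN were larger than 89.4% to 90.8%. Which single samples carry this spread could not be seen, since values per sample were not used here.

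**Figure D3:**
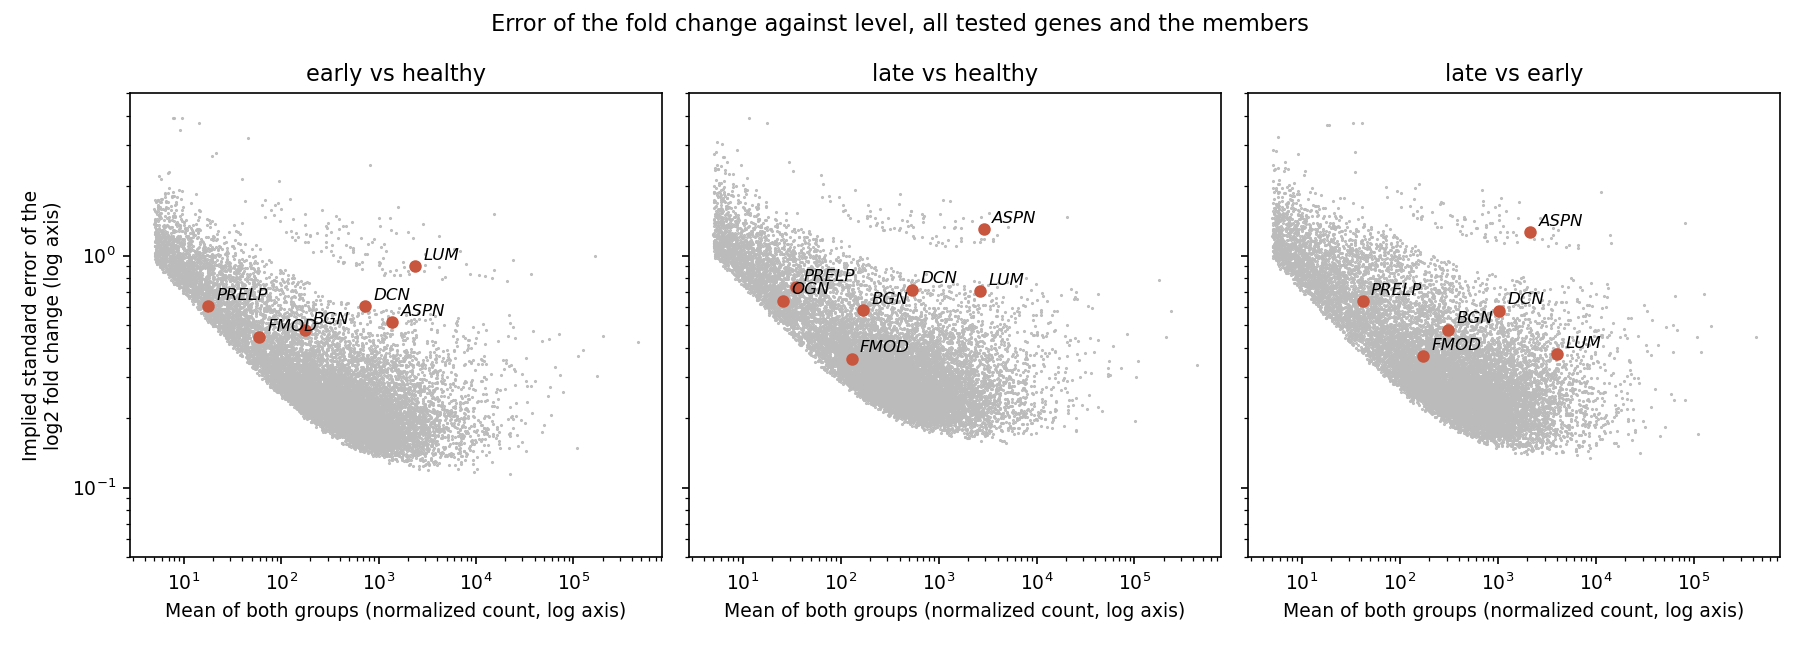
Implied standard error of the log2 fold change against the mean of both groups, both on log axes, for all tested genes with a mean of at least 5 (grey) and for the members (red, named). ASPN in the comparisons with late atretic follicles (1.30 and 1.27) and LUM in early atretic versus healthy follicles (0.90) lie well above most genes of like level, while FMOD lies within the bulk.

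Of 11 further members of the family, 9 had a p-value and 1 passed in early atretic versus healthy follicles, beside 12.9% of all tested genes. In late atretic versus healthy and in late versus early atretic follicles 0 of 9 passed by the authors' adjusted p. Of all tested genes 4.38% and 0.108% passed there. PODNL1, a podocan-like matrix protein, fell from 508 to 258 normalized counts in early atretic follicles per the authors' deposited table, and its log2 fold change was -0.98 ± 0.35 (adjusted p = 0.041). In late atretic follicles its value was -1.47 ± 0.60 and did not pass (adjusted p = 0.19, the authors' deposited table). TSKU (tsukushi), with 345 normalized counts in healthy and 457 in early atretic follicles, had a log2 fold change of 0.41 ± 0.27 in early atretic follicles and -0.10 ± 0.28 in late atretic ones, and neither passed per the authors' deposited tables. Most of the others were hardly present. EPYC, OMD, CHADL, NYX and PODN had means of at most 5.80 normalized counts in every group of the authors' deposited tables, CHAD between 12.8 and 21.2, and KERA and OPTC, of cornea and eye, were listed at 0 in all groups. At an unadjusted p below 0.05, 1 was higher (NYX) and 1 lower (PODNL1) in early atretic, 1 was lower (PODNL1) in late atretic versus healthy, and 1 was lower (TSKU) in late versus early atretic follicles. The median log2 fold change of these 9 genes was 0.28 for early and -0.38 for late atretic versus healthy follicles.

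Several family members lie next to each other in the genome, in the order of the RefSeq assembly NDDB_SH_1, used here for names, gene order and gene overlaps. OGN, OMD, ASPN and ECM2 follow each other, and within this run the fold changes differed in sign and size. In early atretic versus healthy follicles the log2 fold changes were 1.54 for OGN, 0.64 ± 1.29 for OMD, -2.11 ± 0.52 for ASPN and -0.55 ± 0.32 for ECM2 per the authors' deposited table. ECM2, a matrix protein related to decorin, had 546 and 372 normalized counts there and did not pass. In late atretic versus healthy follicles ECM2 had a log2 fold change of 0.38 ± 0.64 and ASPN of 0.70 ± 1.30, again without passing per the authors' deposited table. A further protein-coding gene, LOC102398396, spans OGN, OMD, ASPN and ECM2 in that annotation. It was not found by that identifier among the 20801 unique genes, and the annotation used for the counts is unknown. If that annotation held it, reads of overlapping genes could have been shared or dropped by the counting.

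DCN, LUM, KERA and EPYC form the second run of neighbours. DCN and LUM, side by side, had positive fold changes in both atretic groups (2.12 and 1.65 in early, 1.63 and 1.89 in late atretic follicles per the authors' deposited tables), and only DCN in early atretic follicles passed. KERA was listed at 0 and EPYC had at most 1.77 normalized counts. The nearest protein-coding gene before DCN, the growth inhibitor gene BTG1, had a log2 fold change of -0.29 in early atretic follicles and did not pass (adjusted p = 0.38, the authors' deposited table). Beside BGN lies ATP2B3, a calcium pump gene of the plasma membrane, which rose with log2 fold changes of 4.94 ± 1.26 and 5.41 ± 0.77 in early and late atretic follicles per the authors' deposited tables. OPTC, listed at 0, lies 2 protein-coding genes before FMOD, with LOC102397154 between them. PRELP was not found by symbol in the RefSeq annotation, so its neighbours and overlaps were not examined.

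**Figure D4:**
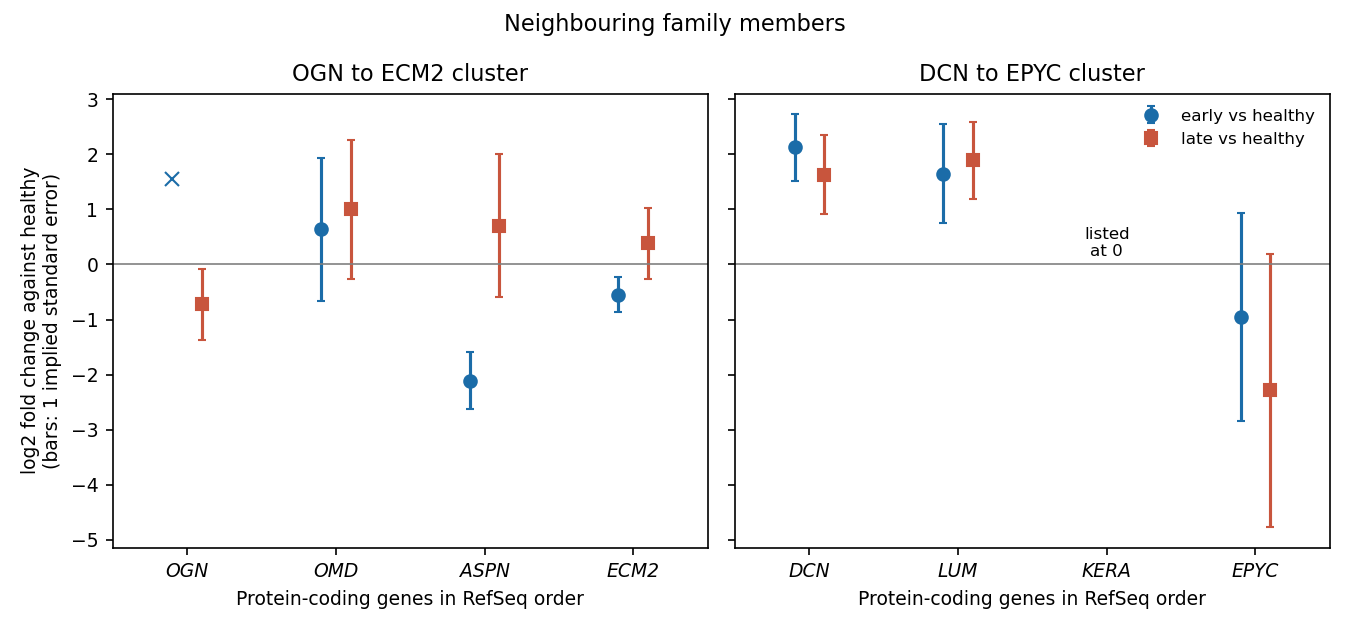
Log2 fold change versus healthy follicles with 1 implied standard error for 2 runs of neighbouring family members in RefSeq order; the cross marks a value with no p. Within the first run ASPN is at -2.11 and OGN at 1.54 in early atretic follicles, and in the second DCN and LUM lie above 0 at both stages.

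The genes with fold changes nearest to those of BGN were sought among 8277 genes with a symbol and a highest group mean at or above the median. The distance was Euclidean in the plane of both log2 fold changes versus healthy follicles, which rests on 3 group means and a shared healthy group. Among the nearest were WWC1, PTPRN, FADS3 and SPHK1, at distances of 0.0876 to 0.159. SPHK1, a sphingosine kinase gene, had log2 fold changes of 2.70 ± 0.34 and 2.77 ± 0.35, and both passed per the authors' deposited tables. WWC1 also passed at both stages, whereas PTPRN did not pass in late and FADS3 did not pass in early atretic follicles. The 5 genes nearest to ASPN, F2R, LRRC53, SCUBE1, NDRG4 and PTPRT, lay at 0.827 to 0.869. The error of ASPN was 1.30 in late and 0.52 in early atretic versus healthy follicles. The early log2 fold changes of the 5 genes, from -1.45 for F2R to -1.26 for SCUBE1, were all farther from the -2.11 of ASPN than 0.52. None of the 5 thus matched ASPN within its early error. F2R and SCUBE1 fell in early atretic follicles, LRRC53, NDRG4 and PTPRT did not pass there, and none of the 5 passed in late ones. F2R, a thrombin receptor gene, had log2 fold changes of -1.45 ± 0.50, which passed, and 0.20 ± 0.80, which did not, per the authors' deposited tables.

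The collagens that these proteoglycans bind were mostly higher in both atretic groups. Of 12 collagen genes, 8 rose in early and 8 in late atretic versus healthy follicles and 0 fell, with median log2 fold changes of 2.44 and 2.24. Among all tested genes 8.59% rose and 4.35% fell in early, and 3.98% and 0.397% in late atretic follicles. In late versus early atretic follicles 0 of 12 passed by the authors' adjusted p, beside 0.108% of all tested genes. At an unadjusted p below 0.05 there were 3 higher and 1 lower, beside 2.36% and 3% of all tested genes. COL3A1, of the fibrils that decorin and biglycan coat, had log2 fold changes of 3.66 ± 0.36 and 4.34 ± 0.38 per the authors' deposited tables. COL1A1 had 2.16 ± 0.37 and 3.12 ± 0.35 and COL6A3, of the beaded filaments of type VI collagen, 3.74 ± 0.86 and 5.52 ± 0.48, all of which passed per the authors' deposited tables. COL6A2 rose with log2 fold changes of 1.93 ± 0.31 and 2.61 ± 0.71 per the authors' deposited tables. COL11A1 (-0.46 ± 0.41 and -0.49 ± 0.62) did not pass in either of the authors' deposited tables.

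Of 22 ligands and receptors that the family is known to bind or act through, 8 rose in early atretic versus healthy follicles. In late ones 6 of 21 rose, and 0 fell at either stage, with median log2 fold changes of 1.48 and 1.58. The list includes the complement genes C1QA, C1QB and C1QC. C1QA, which passed at neither stage, is on the macrophage list too. All tested genes gave 8.59% higher and 4.35% lower in early, and 3.98% and 0.397% in late atretic follicles. The biglycan receptors TLR2 and TLR4 rose at both stages, from means near 12 normalized counts in healthy follicles. Their log2 fold changes per the authors' deposited tables were 2.80 ± 0.81 and 3.32 ± 0.85 for TLR2 and 3.17 ± 0.85 and 3.33 ± 0.87 for TLR4. Among the partners of decorin, the receptor gene MET rose by 2.13 ± 0.48 and 2.14 ± 0.48 as log2 fold changes, while EGFR had 0.07 ± 0.29 and -0.31 ± 0.34 and did not pass per the authors' deposited tables. TGFB1, a TGF-beta ligand, rose in early atretic follicles (2.51 ± 0.62) and did not pass in late ones (1.58 ± 0.67), and its receptor gene TGFBR2 rose in both (3.37 ± 0.48 and 3.31 ± 0.65) per the authors' deposited tables. The ligands TGFB2 (0.98 ± 0.97 and 0.68 ± 1.24) and TGFB3 (0.95 ± 0.59 and 0.23 ± 0.60) passed at neither stage. Nor did the receptor gene TGFBR1 (0.06 ± 0.18 and 0.19 ± 0.23) per the authors' deposited tables. BMP6 (3.47 ± 0.62 and 3.76 ± 0.65) and BMP4 (1.66 ± 0.35 and 1.84 ± 0.46) rose at both stages per the authors' deposited tables. TLR2, TLR4 and CD14 are also genes of macrophages, of whose markers 3 of 5 rose in each comparison with healthy follicles. CD14 itself passed in neither (adjusted p = 0.067 and 0.073, the authors' deposited tables). Whether macrophages account for the rise of TLR2 and TLR4 was not tested.

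Proteases and cofactors that mature or cleave these proteins moved in both directions. In early atretic versus healthy follicles 5 of 13 were higher and 2 lower, beside 8.59% and 4.35% of all tested genes. In late ones 4 of 13 were higher and 0 lower, beside 3.98% and 0.397%. BMP1, the protease that removes the propeptide of biglycan, had log2 fold changes of 0.05 ± 0.15 and -0.18 ± 0.18 per the authors' deposited tables and did not pass. Both lower genes were TLL2, a protease of the same family as BMP1 (-1.99 ± 0.39), and PCOLCE, an enhancer of procollagen processing (-1.31 ± 0.34), in early atretic follicles per the authors' deposited table. The gelatinase genes MMP2 and MMP9 rose, with log2 fold changes of 2.57 ± 0.65 and 3.93 ± 0.66 in early and 3.41 ± 0.46 and 3.42 ± 0.83 in late atretic follicles per the authors' deposited tables. ADAMTS1, which cleaves large proteoglycans, also rose at both stages (2.64 ± 0.50 and 2.21 ± 0.57) per the authors' deposited tables.

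Of 26 enzymes that build and sulphate chondroitin, dermatan or keratan chains, 5 fell and 3 rose in early atretic follicles. Among all tested genes 4.35% fell and 8.59% rose there. In late atretic follicles 0 passed, beside 4.38% of all tested genes, and a list of 26 is too short to tell 0 from that share. At an unadjusted p below 0.05 there were 1 higher and 1 lower in late atretic follicles, beside 9.2% and 2.96% of all tested genes. The list's medians were -0.08 and -0.25 as log2 fold changes. The 5 lower genes were CSGALNACT2, CHSY1, CHPF, CHST11 and CHST15, and the 3 higher ones were XYLT1, UST and CSGALNACT1. CHSY1, a chondroitin synthase gene, had a log2 fold change of -0.91 ± 0.18 in early atretic follicles, and XYLT1, which starts the chain on the core protein, of 1.49 ± 0.36 per the authors' deposited table. The sulphotransferase gene UST rose there too (0.88 ± 0.20), as did CSGALNACT1 (1.61 ± 0.58), the paralogue of CSGALNACT2, per the authors' deposited table. In late atretic follicles the values of XYLT1 (2.03 ± 0.77), CHST11 (-0.93 ± 0.35) and B3GALT6 (-0.71 ± 0.37) did not pass per the authors' deposited table.

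Among 19 other proteoglycans, 6 of 17 tested genes rose and 1 fell in early atretic follicles, and 2 of 19 rose in late atretic ones. Of all tested genes 8.59% rose and 4.35% fell in early, and 3.98% rose in late atretic follicles. VCAN, versican, the large chondroitin sulphate proteoglycan of the follicle, fell from 107971 to 38494 normalized counts in early atretic follicles per the authors' deposited table. Its log2 fold change was -1.49 ± 0.31 there and -0.77 ± 0.46 in late atretic follicles, where it did not pass per the authors' deposited table. The 6 that rose in early atretic follicles, SDC1, SDC3, SDC4, GPC1, GPC2 and GPC6, encode cell surface proteoglycans. SDC1 and GPC1 rose at both stages, with log2 fold changes of 4.43 ± 1.21 and 1.11 ± 0.32 in early and 5.43 ± 0.76 and 1.04 ± 0.31 in late atretic follicles per the authors' deposited tables. SDC3 had 1.42 ± 0.42 in early and 1.60 ± 0.63 in late atretic follicles, where it did not pass. SDC4 and GPC6 had 1.37 ± 0.35 and 0.73 ± 0.20 in early atretic follicles per the authors' deposited table, and neither passed in late ones. CSPG4, a chondroitin sulphate proteoglycan gene from the pericyte marker list, fell in early atretic follicles, with a log2 fold change of -1.62 ± 0.56 (adjusted p = 0.033, the authors' deposited table).

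**Figure D5:**
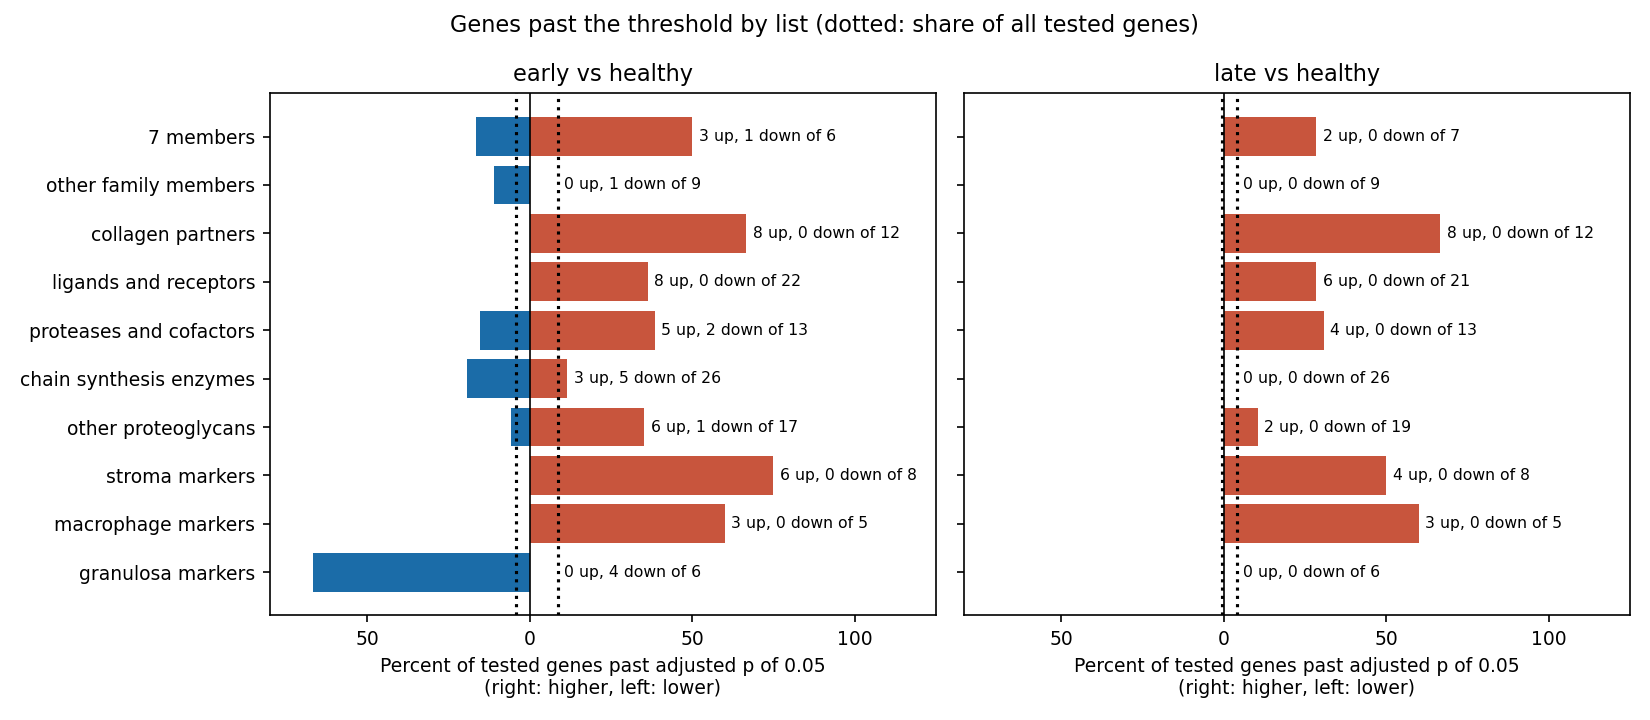
Percent of tested genes of each list past an authors' adjusted p of 0.05, higher to the right and lower to the left of 0, in early and late atretic versus healthy follicles; dotted lines are the shares of all tested genes. Collagen partners reach 8 of 12 at both stages, while the chain synthesis enzymes have 5 lower and 3 higher of 26 in early and 0 in late atretic follicles.

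Read at an unadjusted p below 0.05, 3 of the 6 proteoglycans with a p-value were higher and 1 lower in early atretic versus healthy follicles, where 13.7% of all tested genes were higher and 9.82% lower. In late atretic versus healthy follicles 5 of 7 were higher and 0 lower, where 9.2% of all tested genes were higher and 2.96% lower. The 5 were BGN, DCN, LUM, FMOD and PRELP. Their log2 fold changes lay between 1.63 and 3.55 per the authors' deposited table, and those of ASPN and OGN were 0.70 and -0.73.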

How the data were processed

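Standard Illumina libraries were prepared from Trizol RNA, per the labels' protocols. The submitters' processing notes name Bowtie 0.12.2 and 2 mouse builds, mm8 and mm9, without a role, although the samples are from buffalo. The test tool, counter, annotation and build were not given in the sources used here. The authors' deposited tables hold a signal per group, read as a mean of normalized read counts because values are not whole, with the authors' log2 fold change and p-value per gene, per the file headers. Of 21253 rows in each table, 452 repeated another and were dropped. The same group differed between tables by median factors of 0.972 to 1.05, so each fold change comes from 1 table.

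No model was refitted, since only group means were used; 0 columns of values per sample were left out. Adjusted p-values span all tested genes. The implied standard error (Python 3.11.15, SciPy 1.17.1) is the absolute log2 fold change over the normal quantile of its p-value, an assumption that was not tested; simulated data were used to check the arithmetic alone. The 7 members, the lists and the markers were chosen with earlier results of these data known, and 3 genes per list with the smallest adjusted p were to be named, besides every family member; further genes were named after their values were seen. CCN4, CYP17A1 and CD163 were not found and were not analysed here, and 1 of the genes nearest to BGN is not reported here. RefSeq matched 3 list genes to LOC identifiers. No p is given for lists.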

Additional observations from a re-analysis of the deposited data

How the results depend on the processing

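The counts of 4 members in early atretic versus healthy and of 0 in late versus early atretic follicles were the same at an adjusted p of 0.01, with an added log2 fold change of at least 1, and with adjustment restricted to genes whose mean reached 10. The last of these gave 3 in place of 2 in late atretic versus healthy follicles, PRELP being added. At an unadjusted p below 0.05 the counts were 5 in late atretic versus healthy and 3 in late versus early atretic follicles. Under 5 alternatives of pseudocount, of scale or of rebuilding from the other 2 comparisons, 94 of the 95 member fold changes that have an error moved by less than it. The exception was FMOD in late atretic versus healthy follicles, 3.04 in place of 3.55 with a pseudocount of 10. The largest move of the 105 was with that pseudocount too, for PRELP in late atretic versus healthy follicles, 1.60 in place of 2.23, within its error of 0.73. The other 10 values, of OGN, have no error of their own, and with that pseudocount OGN had -1.84 in place of -2.27 in late versus early atretic follicles. The sign changed in 3 of all 105 values, all for BGN in late versus early atretic follicles, where the value lay near 0. The changes of scale and the rebuilding moved no fold change by more than 0.12, against a smallest member error of 0.36. That they stayed within the error was thus all but fixed in advance.

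No paired analysis was possible because the tables hold group means without replicates, and no sample was left out for the same reason. Levels per length and the share of each gene in the summed level were not run, for want of coding lengths. Depth is unknown, and how far it limits the genes of low level was not measured.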
